A study of Mus musculus with 28 samples.

Results

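Single blastocysts labelled M_KO were compared with single blastocysts labelled het, all 8 of them from 1 series of 28 mouse embryo libraries on the chromatin protein CTCF. The embryos were grouped by their sample titles alone, which gave 4 M_KO embryos (numbers 1, 3, 4 and 5) and 4 het embryos (numbers 3, 5, 6 and 8). The comparison itself was chosen with earlier results of these data known, among them similar Ctcf levels in both groups. All are whole blastocysts of the CD1 strain from the same sequencing batch. WT_flfl blastocysts (n = 3) and MZ_KO blastocysts (n = 3), also CD1 and of the same batch, were used only as reference points. A library labelled as another het blastocyst 3 of a second batch was not analysed here. The labels do not spell out the genotype codes, the deleted allele or the Cre driver. In this field M_KO commonly means an embryo from an oocyte that lacked the gene but with a working paternal copy, het an embryo with 1 working copy from an oocyte that had the gene, and MZ_KO an embryo that lacks both the maternal store and the zygotic copies. The flfl of WT_flfl commonly stands for floxed alleles that have not been recombined. Read that way, M_KO and het embryos have the same zygotic dose, and the comparison asks what the maternal store alone changes by the blastocyst stage. The titles of all M_KO and MZ_KO embryos carry the prefix C7 and those of all het and WT_flfl embryos the prefix N89, so for M_KO against het genotype and prefix cannot be told apart.

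CTCF is a zinc finger protein that binds DNA at insulators and at the borders of chromatin domains, where it halts the loops that cohesin extrudes. The oocyte loads the egg with messenger RNA and protein that carry the first divisions until the embryo's own genome takes over. By the blastocyst stage the embryo has an outer trophectoderm, which forms the placenta and pumps fluid into the cavity, and an inner cell mass that divides into epiblast and primitive endoderm.

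Read totals of the 8 embryos lay between 7377302 (M_KO 1) and 27883060 (het 8), and between 13945 and 15268 genes had a read. Lineage markers were present in both groups, with Krt8, Krt18, Cdx2, Eomes, Pou5f1, Nanog and Gata6 above 90 CPM (reads scaled to library size) in each of the 8 embryos, while the epiblast factor Sox2 lay between 6.72 and 9.98 CPM and was too low to be tested. Embryos also differed in RNA of other cells. The adult beta-globin gene Hbb-bt stood at 871 CPM in het 3 and 2358 CPM in het 6, against 63.0 CPM in het 5 and 0.810 CPM in het 8, and between 66.8 and 274 CPM in the M_KO embryos. WT_flfl 1, which enters the reference comparison, had 1997 CPM. Expression of at least 10 CPM from Ddx3y and from Eif2s3y, on the Y chromosome, was seen in 2 of 4 M_KO and 3 of 4 het embryos.

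Ctcf RNA itself stood at similar levels in both groups, which was known when the comparison was chosen. The gene (ENSMUSG00000005698, chromosome 8, 105636568 to 105682922, plus strand, GRCm38) had 53.2, 62.1, 89.4 and 73.2 CPM in M_KO embryos 1, 3, 4 and 5, and 78.9, 55.1, 67.7 and 68.5 CPM in het embryos 3, 5, 6 and 8. The groups overlapped over most of their range, with means of 69.5 ± 15.6 and 67.5 ± 9.73 CPM (SD, n = 4 each). The difference of 0.026 on the log2(CPM + 1) scale did not pass an exact two-sided permutation test (p = 0.886, with 0.0286 as the smallest p that 4 against 4 allows). Its 95% interval in the fit across all genes ran from −0.42 to 0.47, and its sign turned when M_KO 4 (−0.10), M_KO 5 (−0.0078) or het 5 (−0.067) was left out. All 8 embryos lay below the 3 WT_flfl embryos (95.1 ± 6.02 CPM, exact permutation p = 0.0571 for each group against them) and far above the 3 MZ_KO embryos (3.62 ± 0.660 CPM, n = 3 each). Reads were counted over the whole gene, so a shortened transcript cannot be told from an intact one.

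The table also held LacZ, Neomycine and Puromycin, bacterial reporter and resistance genes that name no mouse gene and whose place in the alleles the labels do not give. LacZ had 10.9, 18.9, 45.1 and 27.95 CPM in M_KO embryos 1, 3, 4 and 5 and 36.1, 27.8, 23.3 and 24.8 CPM in het embryos 3, 5, 6 and 8 (exact permutation p = 0.6). The sign of that difference rested on M_KO 1 (−0.27 on the log2 scale with it and 0.060 without it). Neomycine stood at 7.82 ± 0.897 CPM in M_KO and 9.17 ± 3.34 CPM in het (SD, n = 4 each, exact permutation p = 0.571). Puromycin stood at 11.9 ± 5.78 CPM in M_KO and 7.06 ± 2.501 CPM in het (SD, n = 4 each, exact permutation p = 0.171). In all 3 entries the M_KO and het means lay between those of WT_flfl and MZ_KO, and their values overlapped.

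**Figure D1:**
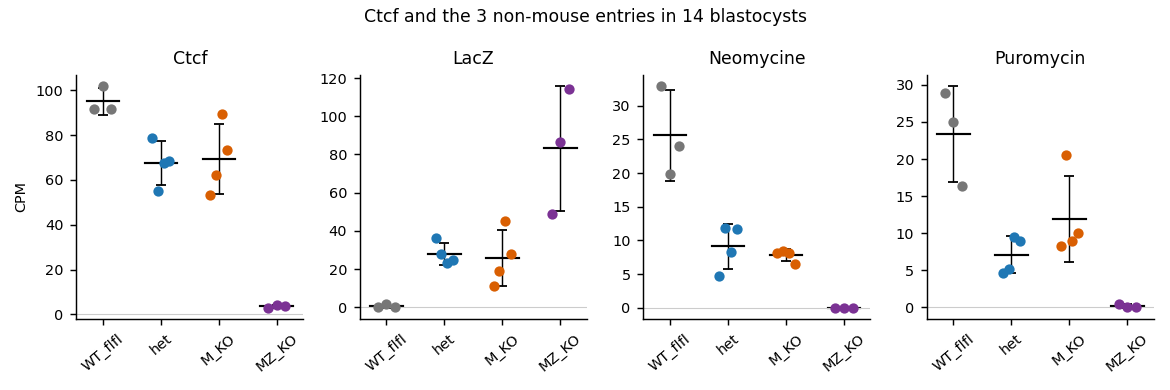
CPM (linear axis) of Ctcf, LacZ, Neomycine and Puromycin in each of the 14 blastocysts, by group, with 1 point per embryo, the mean as a line and the SD as bars. The M_KO and het points overlap in all 4 panels, between the WT_flfl and MZ_KO points for Ctcf, LacZ and Neomycine.

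No gene was called different between M_KO and het. Of 9585 genes tested with limma, 0 passed an adjusted p of 0.05 (0.0%), and the smallest adjusted p was 0.564. At an unadjusted p under 0.05 there were 304 genes with a higher mean in M_KO (3.17%) and 334 with a lower one (3.48%). All 4 M_KO embryos lay above all 4 het embryos for 192 genes (2.0%) and below them for 165 (1.72%). With limma's voom weights on the recovered reads 0 genes passed as well. In the same fit 464 genes were higher (4.84%) and 801 lower (8.36%) in MZ_KO than in WT_flfl, from 3 embryos a group. Leaving out WT_flfl 1 gave 828 genes in place of 1265, leaving out WT_flfl 7 gave 783, and the count of 464 higher genes dropped to 252 without MZ_KO 2 and 277 without WT_flfl 9. Between MZ_KO and M_KO, which carry the same title prefix, 358 genes were higher (3.74%) and 775 lower (8.09%) in MZ_KO, 1133 in all. The count fell to 727 without M_KO 1 (218 higher and 509 lower) and to 726 without MZ_KO 2 (172 of them higher). Without MZ_KO 6 there were 218 higher genes.

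The intervals say how large a difference could still be present. Over all genes tested, the 95% interval of M_KO against het reached a median of 0.62 on the log2 scale to either side of the estimate, and the interval lay within 2-fold either way for 5876 genes (61.3%). Among the 4203 genes with a mean of at least 50 CPM it did so for 3837 (91.3%), with a median reach of 0.41. For the other 5382 genes it did so for 2039 (37.9%), so changes of 2-fold in weakly expressed genes were often not detectable with 4 embryos a group. The median log2 fold change over all genes was 0.0011, with 4811 estimates above 0 and 4774 below. The median distance between embryos, as the root mean square of their log2 differences, was 0.863 between an M_KO and a het embryo, 0.827 between M_KO embryos and 0.824 between het embryos. Between an M_KO and an MZ_KO embryo it was 1.09.

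**Figure D2:**
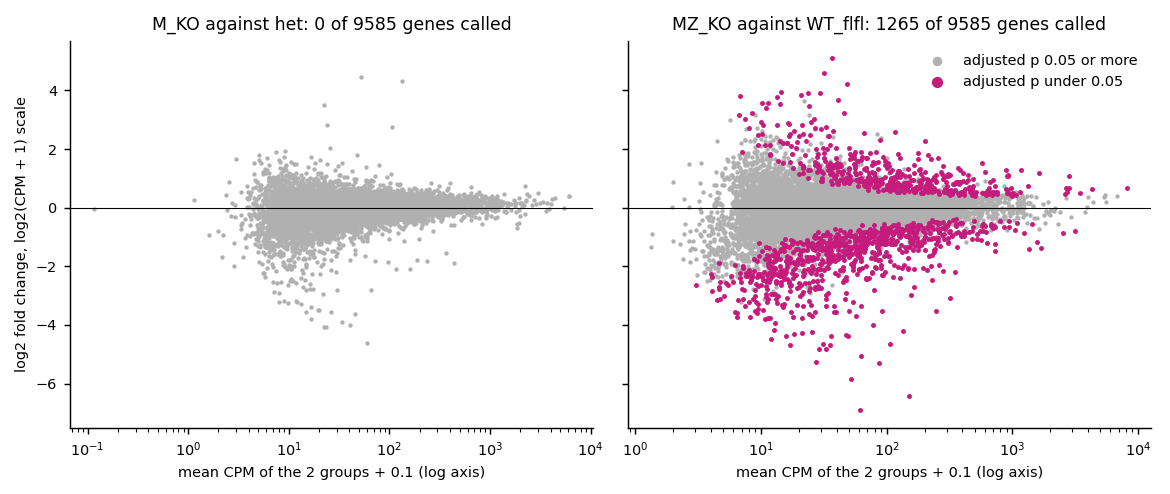
Log2 fold change on the log2(CPM + 1) scale against the mean CPM of the groups compared plus 0.1 (log axis) for 9585 genes, M_KO against het on the left and MZ_KO against WT_flfl on the right, with genes of adjusted p under 0.05 in pink. No gene is pink on the left, and 1265 are on the right.

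The genes nearest to a call came from several processes, and none of them passed. Anp32a, a nuclear phosphoprotein that binds histones, stood at 63.9, 93.7, 82.8 and 72.2 CPM in M_KO embryos 1, 3, 4 and 5 and at 50.25, 37.3, 35.1 and 36.4 CPM in het embryos 3, 5, 6 and 8 (chromosome 9, 62341293 to 62378812). The groups did not overlap, although het 3 lay well above the other hets, and the log2 fold change was 0.96 (SE 0.21, adjusted p = 0.564). Ckb, the brain creatine kinase that buffers ATP, had 2676, 2683, 2675 and 2652 CPM in M_KO against 1778, 2049, 1907 and 2096 CPM in het (chromosome 12, 111669361 to 111672338). The M_KO embryos were nearly equal for this abundant transcript and all above the hets (0.45, SE 0.10, adjusted p = 0.564). Plin2, which coats lipid droplets, had 622, 981, 726 and 854 CPM in M_KO against 513, 624, 443 and 386 CPM in het, with M_KO 1 just under het 5 (0.70, SE 0.17, adjusted p = 0.564). Trp53i11, a gene inducible by p53, stood at 160 ± 19.4 CPM in M_KO and 93.7 ± 27.9 CPM in het (SD, n = 4 each). The processed pseudogene Gm15542 stood at 247 ± 19.2 and 164 ± 24.5 CPM, and its reads are uncertain because near-identical copies could share them.

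On the lower side most of the genes nearest to a call were weakly expressed in M_KO. Ulk2, a kinase that starts autophagy, had 0.266, 1.45, 0 and 2.88 CPM in M_KO embryos 1, 3, 4 and 5 and 22.3, 16.1, 15.5 and 11.7 CPM in het embryos 3, 5, 6 and 8 (chromosome 11, 61775649 to 61855073). The groups were fully apart (−3.19, SE 0.65, adjusted p = 0.564), with WT_flfl between them at 4.95 ± 1.79 CPM and MZ_KO at 7.08 ± 5.43 CPM (SD, n = 3 each). Bcap29, a chaperone of the endoplasmic reticulum, had 10.2, 8.55, 7.52 and 8.60 CPM in M_KO and 40.2, 23.1, 14.7 and 28.8 CPM in het (−1.43, SE 0.34, adjusted p = 0.564). Cfap97 stood at 4.05 ± 3.17 CPM in M_KO and 15.7 ± 2.41 CPM in het, and Lpl, the lipoprotein lipase, at 2.31 ± 1.49 and 19.4 ± 15.6 CPM (SD, n = 4 each). Het 6 alone had 42.6 CPM of Lpl, where the other hets had 10.1 to 13.4 CPM. The fifth gene, Rac2, is a GTPase of blood cells and is described with the other blood cell genes.

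**Figure D3:**
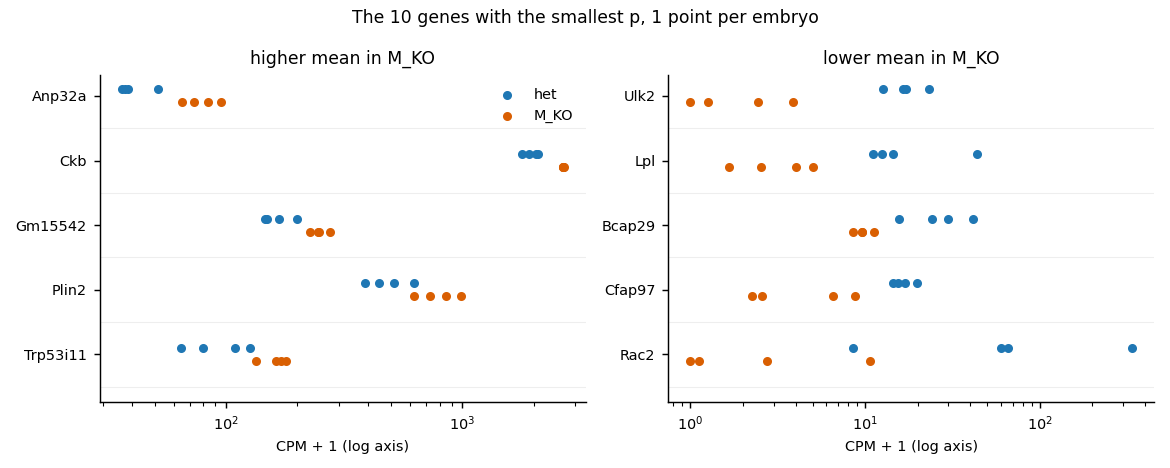
CPM + 1 (log axis) of the 5 genes with the smallest p among those with a higher mean in M_KO (left) and the 5 among those with a lower mean (right), 1 point per embryo. The groups stand apart for 8 of the 10 genes and touch for Plin2 and Rac2, and none of the 10 passed after adjustment.

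Several genes known from white blood cells were high in some het embryos and low in M_KO, and they were picked out after their values were seen, apart from Rac2. Others were less apart. Lyz2 had 16.1 CPM in M_KO 1 against 4.155 CPM in het 8. Tyrobp had 4.52 and 7.88 CPM in M_KO 1 and M_KO 3 against 1.51 CPM in het 8. Rac2 had 65.0, 59.0, 338 and 7.54 CPM in het embryos 3, 5, 6 and 8 and 0, 9.62, 0.125 and 1.74 CPM in M_KO embryos 1, 3, 4 and 5 (adjusted p = 0.564). Ighm, the antibody heavy chain of B cells, had 35.6, 38.5, 186 and 2.46 CPM in the hets and at most 3.70 CPM in an M_KO embryo. The leukocyte signalling genes Prkcb (145 CPM) and Vav1 (60.6 CPM) both had their highest value in het 6. Het 8 was low for most of these genes, as it was for haemoglobin. Of 16 blood markers 10 were tested. At an unadjusted p under 0.05, 2 were lower in M_KO (Cd52 and Lyz2) and 0 higher, where 3.48% of all genes tested were lower. Yet 6 of the 10 estimates were above 0, with a list median of 0.29 (1.27 without het 3 and het 6). The summed level of the 16 lay between 1291 and 3760 CPM in M_KO and between 55.7 and 32070 CPM in het. Ptprc, the general leukocyte antigen, stood at 8.20 and 14.8 CPM in het 3 and het 6, and at no more than 0.106 CPM in each of the other 6 embryos. Of 10 oviduct and uterine markers 7 were tested, with Ltf and Pax8 lower in M_KO at an unadjusted p under 0.05, and their summed level lay between 48.1 and 201 CPM in M_KO and between 82.4 and 784 CPM in het. Ovgp1, the oviduct glycoprotein, had 486 CPM in het 6. Whether these cells or their RNA play a part in other differences was not tested, beyond leaving out het 3 and het 6.

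A few genes of steroid synthesis were high in some M_KO embryos. Cyp11a1, which makes pregnenolone from cholesterol, had 18.4, 778, 4.32 and 247 CPM in M_KO embryos 1, 3, 4 and 5 and 3.82, 2.28, 6.40 and 0.035 CPM in het embryos 3, 5, 6 and 8. M_KO 3 and M_KO 5 carried the group mean, while M_KO 4 lay inside the het range (4.33, SE 1.42, adjusted p = 0.694). Hsd3b1, the next enzyme of the pathway and chosen after its values were seen, had 31.7, 286, 4.94 and 87.2 CPM in M_KO, with the same order of embryos, and at most 5.53 CPM in het (4.47, SE 1.16, adjusted p = 0.564). Star, which brings cholesterol into mitochondria, had 707 CPM in M_KO 3 and 105 CPM in M_KO 5 but 10.5 and 0.291 CPM in M_KO 1 and M_KO 4, and at most 12.1 CPM in het. These genes are known from both trophoblast giant cells and ovarian cells. Of 13 granulosa and cumulus markers 5 were in the table, with a summed level of 30.3 to 749 CPM in M_KO and 29.5 to 66.4 CPM in het, and 0 of the 2 tested reached an unadjusted p under 0.05. Star is itself among these 5, and its 707 CPM is most of the 749 CPM of M_KO 3, so the sum is not separate from Star. Inha, another of them, had 78.6, 27.7, 0 and 0.961 CPM in M_KO embryos 1, 3, 4 and 5. It had at most 1.37 CPM in het.

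Lineage genes as a whole gave no call. Among 32 trophectoderm markers 1 had a higher and 3 a lower mean in M_KO at an unadjusted p under 0.05, and the list median of 0.10 turned to −0.15 without het 3 and het 6. The higher one is Cyp11a1, already described with the steroid genes, and Enpep, described further on, is among the lower ones. Over all genes tested 3.17% were higher and 3.48% lower at that threshold. Cdx2, the trophectoderm master factor, stood at 257 ± 33.1 CPM in M_KO and 234 ± 26.1 CPM in het, and Eomes at 232 ± 67.2 and 220 ± 114 CPM (SD, n = 4 each). The growth factor receptor Fgfr2 had 163, 113, 156 and 129 CPM in M_KO embryos 1, 3, 4 and 5 and 172, 184, 281 and 195 CPM in het embryos 3, 5, 6 and 8, without overlap (−0.55, SE 0.26, adjusted p = 0.740). Krt19, a simple epithelial keratin, was also lower without overlap, with 74.4 CPM in het 6 and 1.01 to 11.8 CPM in the other 7 embryos.

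Among 24 epiblast and inner cell mass markers 5 had a higher mean in M_KO at an unadjusted p under 0.05 and 0 a lower one, with 16 estimates above 0 and 8 below. Of all genes tested 3.17% were higher and 3.48% lower at that threshold, and 50.2% of estimates were above 0. Abundant genes leaned upward in M_KO in general. Of the 4203 genes of at least 50 CPM, 58.4% of estimates were above 0, with 219 higher and 97 lower at that threshold. The list median was 0.17, and 0.29 without het 3 and het 6. Dppa4, a pluripotency-associated chromatin protein, had 289, 232, 251 and 260 CPM in M_KO embryos 1, 3, 4 and 5 and 198, 144, 154 and 243 CPM in het embryos 3, 5, 6 and 8 (0.51, SE 0.15, adjusted p = 0.670). Pou5f1, the Oct4 gene, had 358, 456, 378 and 378 CPM in M_KO and 352, 263, 238 and 356 CPM in het. The lowest M_KO value lay just above the highest het value (0.39, SE 0.15, adjusted p = 0.722). Esrrb stood at 24.6 ± 4.03 and 14.2 ± 2.32 CPM and Gdf3 at 90.6 ± 31.4 and 59.6 ± 11.2 CPM (SD, n = 4 each), while Nanog stood at 180 ± 49.3 and 133 ± 30.5 CPM with overlap. Summed over the tested members, epiblast markers had 6856, 6422, 6086 and 6316 CPM in M_KO and 5505, 5515, 5752 and 6004 CPM in het, so the sums did not overlap. Of 22 primitive endoderm markers 0 had a higher and 2 a lower mean at an unadjusted p under 0.05, with the laminin chain Lamc1 at 60.5 ± 24.1 CPM in M_KO and 109 ± 35.5 CPM in het, a median of −0.085 (−0.17 without het 3 and het 6), and Gata6 at 146 ± 27.9 and 147 ± 63.5 CPM. WT_flfl embryos had 62.41 ± 17.45 CPM of Lamc1 (SD, n = 3), near the M_KO mean.

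Of 42 cavitation and junction genes 1 had a higher and 1 a lower mean at an unadjusted p under 0.05 (median −0.083, and −0.061 without het 3 and het 6). The shares over all genes tested were 3.17% higher and 3.48% lower. Aqp3, a water and glycerol channel, had 251, 660, 450 and 751 CPM in M_KO embryos 1, 3, 4 and 5 and 249, 335, 190 and 344 CPM in het embryos 3, 5, 6 and 8 (0.84, SE 0.29, adjusted p = 0.722). The polarity gene Pard3 stood at 48.6 ± 12.9 CPM in M_KO and 71.7 ± 14.2 CPM in het.

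Oocyte genes and genes of CTCF and its partners gave no call either. Of 49 maternal-effect and oocyte genes 22 were in the table and 13 were tested, with 2 higher and 1 lower at an unadjusted p under 0.05. The shares over all genes tested were 3.17% higher and 3.48% lower. Khdc3, a subunit of the subcortical maternal complex, had 2775, 3008, 2902 and 2456 CPM in M_KO embryos 1, 3, 4 and 5 and 2014, 2314, 1944 and 2239 CPM in het embryos 3, 5, 6 and 8. The groups did not overlap (0.39, SE 0.11, adjusted p = 0.597), and MZ_KO embryos stood at 3195 ± 227 CPM against 2215 ± 255 CPM in WT_flfl (SD, n = 3 each). Tcl1, a cofactor of the kinase Akt that eggs express, had 61.2, 34.9, 35.1 and 47.6 CPM in M_KO and 12.7, 27.0, 19.7 and 22.1 CPM in het. Dnmt1, the maintenance DNA methyltransferase, stood at 33.7 ± 13.2 CPM in M_KO and 57.3 ± 12.5 CPM in het (adjusted p = 0.722). Of 21 tested genes of CTCF and cohesin 0 had a higher and 1 a lower mean at an unadjusted p under 0.05. That gene is Stag3, the cohesin subunit of meiosis, with 6.52, 12.8, 14.8 and 14.9 CPM in M_KO and 22.4, 39.0, 27.9 and 29.3 CPM in het (−1.24, SE 0.42, adjusted p = 0.722). MZ_KO embryos had 5.68 ± 3.86 CPM of Stag3 and WT_flfl 36.0 ± 11.3 CPM, so M_KO lay on the MZ_KO side of het. Of 23 transcripts of the 2-cell stage 6 were in the table and 2 were tested, with Sp110 lower at an unadjusted p under 0.05 through het 3 (131 CPM, and 5.59 to 27.5 CPM in the other 7).

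The series title also names a metabolic switch, and the metabolic lists gave no call. Of 75 nuclear-encoded oxidative phosphorylation genes 70 had an estimate above 0 and 7 a higher mean in M_KO at an unadjusted p under 0.05, with 0 lower. The list median was 0.16, and 0.013 without het 3 and het 6. The complex I subunit Ndufv1 had 277, 272, 321 and 254 CPM in M_KO embryos 1, 3, 4 and 5 and 222, 252, 222 and 226 CPM in het embryos 3, 5, 6 and 8 (0.28, SE 0.12, adjusted p = 0.722). All 15 mitochondrially encoded transcripts had an estimate below 0, with a median of −0.21 (−0.18 without het 3 and het 6). The oxidase subunit mt-Co1 had 2050.0, 2026, 902 and 926 CPM in M_KO and 2252, 2508, 2682 and 1544 CPM in het, so M_KO 4 and M_KO 5 were low and M_KO 1 and M_KO 3 lay inside the het range (−0.69, SE 0.32, adjusted p = 0.741). Among all genes tested the estimate was above 0 for 50.2%, and among those of at least 50 CPM for 58.4%. At an unadjusted p under 0.05, 3.17% of all genes tested were higher and 3.48% lower. Among the 4203 genes of at least 50 CPM 219 were higher and 97 lower.

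Among 32 enzymes of pyruvate use and of the tricarboxylic acid cycle 3 had a higher mean in M_KO at an unadjusted p under 0.05 and 0 a lower one. Over all genes tested 3.17% were higher and 3.48% lower at that threshold. Among the 4203 genes of at least 50 CPM 219 were higher and 97 lower. Pdhb, a subunit of pyruvate dehydrogenase, had 493, 523, 549 and 578 CPM in M_KO embryos 1, 3, 4 and 5 and 453, 441, 376 and 387 CPM in het embryos 3, 5, 6 and 8, without overlap (0.37, SE 0.11, adjusted p = 0.665). Of 19 glycolysis enzymes 0 were higher and 1 lower at an unadjusted p under 0.05. Ldha, the lactate dehydrogenase subunit with the widest spread among those named, had 20.1, 51.4, 5.61 and 7.14 CPM in M_KO and 38.6, 31.2, 110 and 58.3 CPM in het. Counts at an unadjusted p under 0.05 were 0 and 0 for 14 nutrient transporters and for 28 fatty acid oxidation genes. Among 23 genes of cholesterol synthesis Fdps had a higher mean at an unadjusted p under 0.05, at 312 ± 93.0 CPM in M_KO and 201 ± 154 CPM in het (SD, n = 4 each, adjusted p = 0.722). The list medians of glycolysis, transporters, the tricarboxylic acid cycle, fatty acid oxidation and cholesterol synthesis lay between 0.017 and 0.052 (0.014 for the cycle without het 3 and het 6), and the sign turned under quantile normalization for the cycle and glycolysis, and without het 3 and het 6 for glycolysis, transporters, fatty acid oxidation and cholesterol synthesis.

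Most mitosis genes had a lower mean in M_KO, and no member passed. Of 45 genes 34 had an estimate below 0, with a median of −0.16 (−0.17 without het 3 and het 6), and 6 had a lower mean at an unadjusted p under 0.05, with 0 higher. Of all 9585 genes tested, 4774 had an estimate below 0, 334 (3.48%) a lower mean at that threshold and 304 (3.17%) a higher one. Incenp, the scaffold of the Aurora B complex, had 65.1, 49.8, 49.0 and 64.8 CPM in M_KO embryos 1, 3, 4 and 5 and 86.0, 84.0, 102 and 114 CPM in het embryos 3, 5, 6 and 8. The groups were apart (−0.75, SE 0.21, adjusted p = 0.597), with the means of WT_flfl (71.3 ± 13.4 CPM) and MZ_KO (69.8 ± 20.1 CPM, SD, n = 3 each) between them. The polo kinase Plk1 stood at 122 ± 12.4 and 177 ± 45.3 CPM, and Cdc20, which activates the anaphase ligase, at 582 ± 18.8 and 719 ± 113 CPM (SD, n = 4 each). WT_flfl embryos had 126 ± 13.8 CPM of Plk1 and 530 ± 24.7 CPM of Cdc20 (SD, n = 3 each). For both genes the WT_flfl mean lay nearer to M_KO than to het. Summed over the tested members, mitosis genes had 7304, 7351, 7284 and 6714 CPM in M_KO and 7416, 7865, 7879 and 8536 CPM in het. Of 48 DNA replication genes 3 were higher (Gmnn, Fen1 and Pola1) and 0 lower at an unadjusted p under 0.05, with a median of −0.0025 (−0.022 without het 3 and het 6).

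Of 21 tested p53 targets 16 had an estimate below 0, with a median of −0.42 (−0.64 without het 3 and het 6), and 2 were higher and 4 lower at an unadjusted p under 0.05. Of all 9585 genes tested, 4774 had an estimate below 0. Summed over the tested members, p53 targets had 1404, 1205, 1329 and 1324 CPM in M_KO and 1344, 1273, 1134 and 1740 CPM in het, with overlap. The members named here are among the lower ones, while Trp53i11, the p53-inducible gene described above, had a higher mean in M_KO. Mdm2, the ligase that restrains p53, had 35.5, 23.7, 37.1 and 56.5 CPM in M_KO embryos 1, 3, 4 and 5 and 65.1, 67.5, 59.7 and 70.3 CPM in het embryos 3, 5, 6 and 8 (−0.83, SE 0.23, adjusted p = 0.597). Every M_KO embryo was below every het, and MZ_KO stood at 83.3 ± 11.3 CPM beside WT_flfl at 76.3 ± 17.1 CPM (SD, n = 3 each). Gtse1, a p53 regulator of the cell cycle, stood at 37.2 ± 7.48 CPM in M_KO and 76.3 ± 26.2 CPM in het (adjusted p = 0.633).

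Among heat shock and immediate early genes 16 were tested, and 5 were higher and 0 lower in M_KO at an unadjusted p under 0.05, with a median of 0.28 (0.21 without het 3 and het 6). Over all genes tested the shares at that threshold were 3.17% higher and 3.48% lower. The co-chaperone Dnaja1 had 1380.0, 1265, 1407 and 1354 CPM in M_KO embryos 1, 3, 4 and 5 and 1165, 1018, 897 and 993 CPM in het embryos 3, 5, 6 and 8, without overlap (0.41, SE 0.11, adjusted p = 0.597). The chaperone Hspa8 stood at 6997 ± 1177 and 5327 ± 1254 CPM with overlap. For the unfolded protein and integrated stress responses the counts over 25 genes were 0 and 0. Among 82 cytosolic ribosomal proteins 78 estimates were above 0 and 6 genes were higher at an unadjusted p under 0.05, with 0 lower. Their median of 0.15 went to 0.041 without het 3 and het 6. Estimates above 0 made up 50.2% of all genes tested and 58.4% of those of at least 50 CPM. Rpl3 stood at 1168 ± 92.7 CPM in M_KO and 949 ± 43.8 CPM in het (SD, n = 4 each, adjusted p = 0.722).

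Imprinted and sex-linked genes also gave no call. Of 29 autosomal imprinted genes 1 was higher and 1 lower at an unadjusted p under 0.05, where 3.17% and 3.48% of all genes tested were. Snrpn, expressed from the paternal copy, had 282, 266, 317 and 274 CPM in M_KO embryos 1, 3, 4 and 5 and 252, 213, 193 and 230 CPM in het embryos 3, 5, 6 and 8 (0.36, SE 0.12, adjusted p = 0.709). Inpp5f stood at 4.46 ± 0.908 and 11.3 ± 2.93 CPM. Of 57 clustered protocadherins, neural genes that CTCF is known to regulate, 1 was in the table and 0 were tested. Of 14 genes of X inactivation and X dosage and of 3 Y-linked genes 0 reached an unadjusted p under 0.05. Xist was at 168 and 61.4 CPM in M_KO 3 and M_KO 5 and at 95.2 CPM in het 8, and at most 4.48 CPM in the other 5 embryos, which are those where both Y-linked genes reached 10 CPM.

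**Figure D4:**
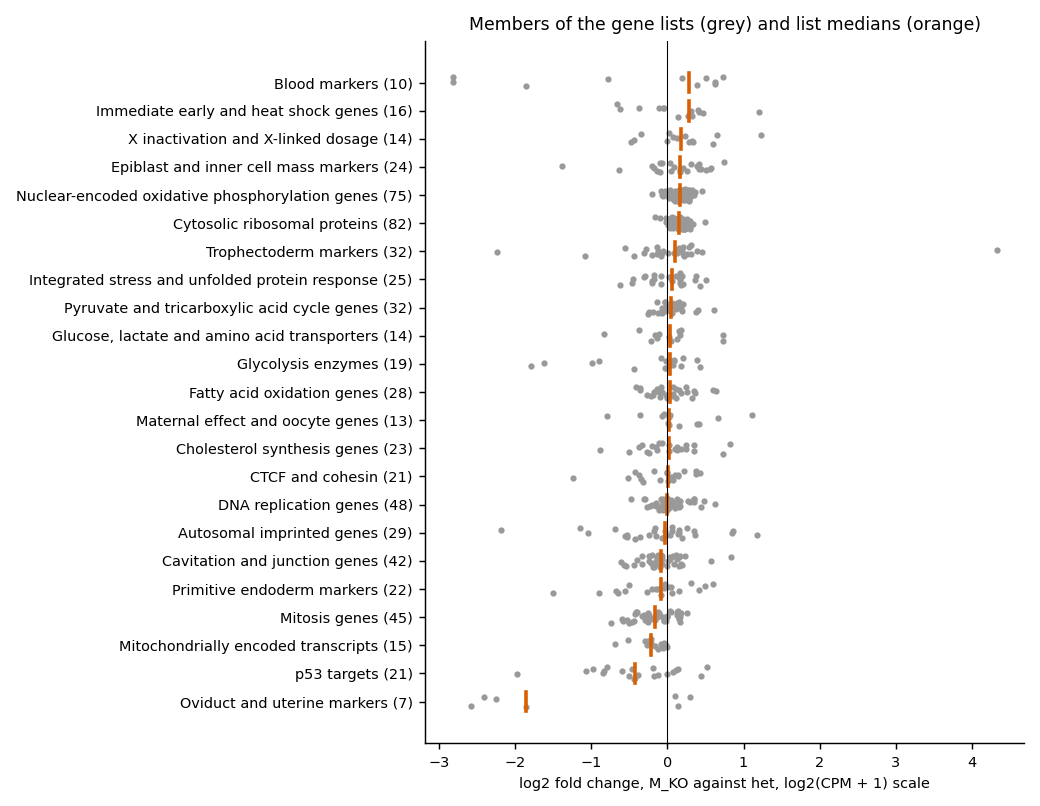
Log2 fold change of M_KO against het on the log2(CPM + 1) scale for the tested members (grey points) of each gene list with at least 5 of them, with the list median in orange and the number of members in brackets. Medians run from −1.85 for oviduct and uterine markers (−0.23 without het 3 and het 6) to 0.29 for blood markers (1.27 without them). Between these lie −0.42 for p53 targets, −0.21 for mitochondrially encoded transcripts, 0.15 for cytosolic ribosomal proteins (0.041 without them), 0.16 for oxidative phosphorylation (0.013), 0.18 for X-linked genes (0.064) and 0.28 for immediate early and heat shock genes (0.21), and no grey point passed after adjustment.

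Among the 10 genes with the largest falls in MZ_KO against WT_flfl, several stood at similar levels in M_KO and het. Adprhl2, which removes ADP-ribose from serines, had 97.5, 108, 113 and 114 CPM in M_KO embryos 1, 3, 4 and 5 and 110, 115, 81.6 and 136 CPM in het embryos 3, 5, 6 and 8, where the 3 MZ_KO embryos together had almost none (0.042, 0 and 0 CPM). The M_KO values lay inside the het range, with a 95% interval of the log2 fold change from −0.47 to 0.44. Gfm1, a mitochondrial elongation factor, stood at 171 ± 32.7 CPM in M_KO and 166 ± 19.1 CPM in het (SD, n = 4 each) against 5.82 ± 7.09 CPM in MZ_KO. For Gfm1 the interval was wider, from −1.01 to 1.07, in the fit that also held the MZ_KO and WT_flfl embryos (SE 0.493). With only the 8 M_KO and het embryos in the fit, the estimate was the same (0.0295) and the SE was 0.168. The wide interval is therefore not a measure of the spread within M_KO and het alone. Fabp5, a fatty acid-binding protein, had 221, 122, 210 and 117 CPM in M_KO and 164, 192, 122 and 182 CPM in het, against 4.64 to 9.96 CPM in MZ_KO. Ttc5, a p53 cofactor, stood at 69.4 ± 24.2 CPM in M_KO, 64.8 ± 9.79 CPM in het (SD, n = 4 each) and 1.46 ± 1.05 CPM in MZ_KO (SD, n = 3).

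Most of the 10 genes with the largest rises in MZ_KO had low levels in both M_KO and het. Hoxb13, a posterior homeobox gene, had 1.89 to 12.9 CPM in M_KO embryos, 2.33 to 12.7 CPM in het and 52.5 to 137 CPM in MZ_KO. Gdpd1, a phosphodiesterase of lipid metabolism, had at most 4.59 CPM in M_KO and 3.82 CPM in het, against 51.9 to 75.3 CPM in MZ_KO. Hand1, a trophoblast factor, had 0, 0.0967, 1.66 and 11.6 CPM in M_KO, at most 3.87 CPM in het and 44.5 ± 18.5 CPM in MZ_KO (SD, n = 3). Plcg2, a signalling phospholipase, was the one of the 10 with the largest rises whose M_KO mean was over 2 times that of het, at 49.2 ± 30.5 and 18.1 ± 11.9 CPM (adjusted p = 0.775), with 19.4 to 80.1 CPM in M_KO and 2.85 to 30.8 CPM in het.

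Enpep and Ext2, also among the 10 largest falls, had lower means in M_KO than in het. Enpep, an aminopeptidase of the apical cell surface, had 126, 142, 89.8 and 127 CPM in M_KO embryos 1, 3, 4 and 5 and 128, 288, 366 and 313 CPM in het embryos 3, 5, 6 and 8 (chromosome 3, 129269175 to 129332720). Het 3 lay at the M_KO level and the other hets far above it (−1.08, SE 0.47, adjusted p = 0.722). Ext2, a heparan sulfate polymerase, had 33.8, 50.01, 21.8 and 25.3 CPM in M_KO and 58.0, 55.2, 56.3 and 65.1 CPM in het, without overlap (−0.89, SE 0.36, adjusted p = 0.722; chromosome 2, 93661028 to 93822568). WT_flfl stood at 53.7 ± 19.5 CPM and MZ_KO at 0.528 ± 0.915 CPM (SD, n = 3 each).

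**Figure D5:**
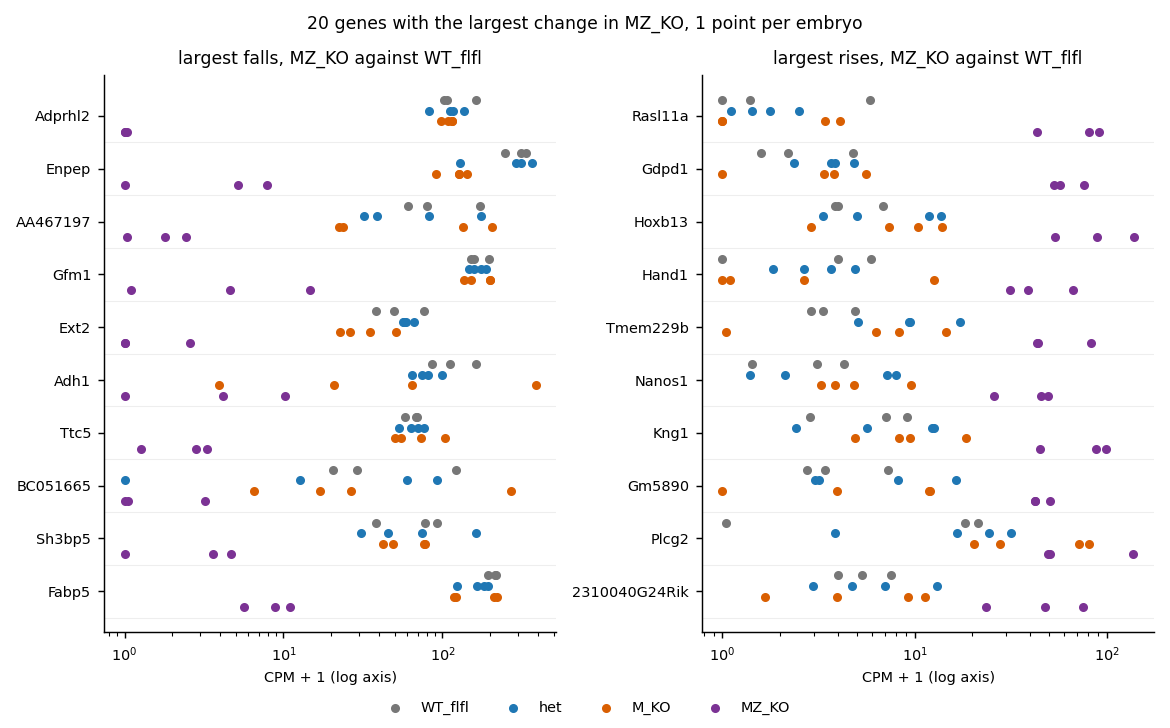
CPM + 1 (log axis) of the 10 genes with the largest falls (left) and the 10 with the largest rises (right) in MZ_KO against WT_flfl, 1 point per embryo in the 4 blastocyst groups. M_KO points mix with het and WT_flfl points for most genes, and those of Enpep and Ext2 lie mostly below het and above MZ_KO.

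Whether the effect of MZ_KO against WT_flfl exceeds that of M_KO against het was tested as the difference of the 2 effects in the same fit, a test added after the data were seen. It passed for 257 genes, 53 with a higher difference (0.553%) and 204 with a lower one (2.13%), of which 253 were also called in MZ_KO against WT_flfl, out of its 1265. The difference of effects was −5.34 for Gfm1 (SE 0.75, adjusted p = 0.00106), −4.64 for Fabp5 (SE 0.38, adjusted p = 2.82e-06) and −5.34 for Enpep (SE 0.71, adjusted p = 5.46e-04), while Ext2 differed by −4.37 (SE 0.54, adjusted p = 2.59e-04) and Adprhl2 passed at an adjusted p = 2.09e-09. The genes named here were picked for their large falls in MZ_KO against WT_flfl, which is part of the difference tested. Their p-values are therefore not separate evidence. With voom weights on the recovered reads the adjusted p was 0.266 for Enpep, 0.377 for Ext2, 0.156 for Adprhl2 and 0.105 for Ttc5, and the count over all genes was 135. The count was 127 without het 3 and het 6, and 164, 159, 170 and 142 without M_KO 4, het 3, WT_flfl 1 and WT_flfl 7. These 257 genes cover only part of the 1265, so for most genes called in MZ_KO the 2 effects were not shown to differ.

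Some metabolic and stress genes that fell in MZ_KO stood higher in M_KO than in het. Me1, the cytosolic malic enzyme that makes NADPH, had 245, 305, 222 and 345 CPM in M_KO embryos 1, 3, 4 and 5 and 166, 153, 183 and 226 CPM in het embryos 3, 5, 6 and 8, against 126 ± 41.6 CPM in MZ_KO and 260 ± 30.8 CPM in WT_flfl (SD, n = 3 each). Het 8 lay just above the lowest M_KO embryo, and the 2 effects differed by −1.71 (SE 0.31, adjusted p = 0.00596). Hsph1, a chaperone of the Hsp110 family, had 576, 562, 577 and 838 CPM in M_KO and 560, 399, 426 and 453 CPM in het, against 278 ± 64.3 CPM in MZ_KO and 541 ± 40.7 CPM in WT_flfl (difference −1.44, SE 0.25, adjusted p = 0.00364). Me1 and Hsph1 did not pass in M_KO against het itself (adjusted p = 0.699 and 0.722). Both were named for their small p in M_KO against het, also part of the difference, so its p-values are not separate evidence for them. Named from earlier results of these data, the mitochondrial ribosome gene Mrps2 stood at 117 ± 16.5 CPM in M_KO and 108 ± 21.5 CPM in het, against 9.65 ± 7.13 CPM in MZ_KO (difference −4.11, SE 0.44, adjusted p = 5.87e-05). The complex I subunit Ndufb7 stood at 118 ± 20.4 and 98.8 ± 13.4 CPM against 21.1 ± 3.21 CPM (difference −2.67, SE 0.26, adjusted p = 3.21e-05).

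M_KO against het and MZ_KO against WT_flfl share no embryo, and both set prefix C7 against N89. Of the 304 genes with a higher M_KO mean at an unadjusted p under 0.05, 73 (24.0%) were called higher in MZ_KO against WT_flfl. Of all genes tested 4.84% were. These 73 are 15.7% of the 464 called higher, where 3.17% of all genes tested had a higher M_KO mean at that threshold. A further 11 of the 304 were called lower there. Of the 334 genes with a lower mean, 47 (14.1%) were called lower, where 8.36% of all genes tested were, and 5 were called higher. These 47 are 5.87% of the 801 called lower, where 3.48% of all genes tested had a lower M_KO mean at that threshold. Among the 464 genes 358 had an M_KO-het estimate above 0, with a median of 0.17 against 0.98 in MZ_KO. Among the 801 genes 517 had one below 0, with a median of −0.091 against −1.46 in MZ_KO. Anp32a and Ckb, the 2 genes with the smallest p and a higher mean in M_KO, belong to the 464. Anp32a stood at 143 ± 47.9 CPM in MZ_KO and 41.8 ± 6.12 CPM in WT_flfl (1.71, SE 0.25, adjusted p = 2.82e-04), and Ckb at 3032 ± 468 and 2167 ± 156 CPM (0.48, SE 0.12, adjusted p = 0.0142; SD, n = 3 each). For both, the M_KO embryos lay above the WT_flfl embryos as well as the hets, and whether that goes with genotype or with the title prefix cannot be told apart.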

How the data were processed

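Complementary DNA of single embryos was made by the SMART-Seq method for very small inputs, per the labels' protocols. The submitters' processing notes name cutadapt 1.14, Bowtie2 2.2.9 and RSEM 1.3.1 with GRCm38 and mm10, without their roles. The kit does not mark strand, so a gene and its antisense partner cannot be told apart. The authors deposited log2 values per gene, which behaved as log2 of library-scaled reads (CPM) with 0.5 reads added before scaling. Taking off each column's floor gave CPM, and 100% of the values came out as whole reads within 0.01 reads. The table held 15582 genes, 15575 of them matched to GENCODE M21 on GRCm38.

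The design had assumed linear values. Tests used limma 3.58.1 in R 4.3.3 on log2(CPM + 1), a scale that understates changes near 0, with trended moderated variance, all 14 blastocysts in 1 fit, and genes of at least 10 CPM in at least 3 embryos. Tests were two-sided with Benjamini-Hochberg adjustment over 9585 genes, and intervals are at 95%. The fit was tested on simulated data. Ctcf and the 3 entries that name no mouse gene, at most 0.0113% of an embryo's reads and outside the fit, were compared by exact permutation, over 70 splits for M_KO against het and 35 against WT_flfl.

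Embryos were grouped by their titles. Nothing in the labels says which share a mother, so p-values measure only the spread between these embryos. The members, the 27 gene lists and the comparisons were chosen with earlier results of these data known. Named were the 5 genes with the smallest p in each direction (none passed), up to 4 members of each list with the smallest p, and the 10 largest rises and falls in MZ_KO against WT_flfl among called genes without overlap and a mean of at least 20 CPM. Markers and genes said to be chosen later are added. Some genes that this rule names are not reported here. Alternatives were other pseudocounts, filters, scalings, voom weights, a term for Y-linked expression, the M_KO and het embryos alone, a block for embryo number and leaving out embryos. Python 3.11.15 with matplotlib 3.10.9 drew the figures.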

Additional observations from a re-analysis of the deposited data

Results flagged for a closer look

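Among 32 groups of 4 embryos examined for an embryo far from the rest, 3 stood out, where chance marks about 1 in 20. M_KO 3 had 20.5 CPM of the Puromycin entry, against 8.25 to 10.02 CPM in the other M_KO embryos. Het 3 had 50.3 CPM of Anp32a, against 35.1 to 37.3 CPM in the other hets. Het 6 had 42.6 CPM of Lpl, against 10.1 to 13.4 CPM in the other hets.

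The effect of MZ_KO against WT_flfl differed from that of M_KO against het for 257 genes, by a test of the difference itself.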

How the results depend on the processing

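The counts of 0 genes higher and 0 lower in M_KO than het held under all 26 other settings. The smallest adjusted p among them was 0.115, with a block for embryo number. Reads of weakly expressed genes limit what could be detected. Embryo numbers 3 and 5 occur in both groups by title only, after different title prefixes, and the labels do not say that they pair the embryos. The deviations of same-numbered embryos correlated at −0.144 and −0.12, where all M_KO and het pairs ran from −0.144 to 0.142. So few values cannot decide whether the embryos are paired. With that replicate block, MZ_KO against WT_flfl gave 1 gene higher and 47 lower, MZ_KO against M_KO 13, het against WT_flfl 2 and the difference of effects 1 gene, and log2 fold changes were 0.0237 for Adprhl2 and −0.485 for Gfm1 in M_KO against het, and −0.819 for the difference of Plcg2.

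The difference of effects passed for 135 genes with voom weights and 127 without het 3 and het 6. Estimates near 0 in M_KO against het changed sign with median centring for Adprhl2 (0.0105) and Fabp5 (0.00506), with the term for Y-linked expression for Fabp5 (0.00217) and with quantile normalization for Gfm1 (−0.00553). Leaving out 1 embryo at a time gave 252 to 503 genes higher and 501 to 868 lower in MZ_KO against WT_flfl, 726 to 1187 between MZ_KO and M_KO, 0 to 1 between het and WT_flfl, and 142 to 269 for the difference of effects. The log2 difference of M_KO against het ranged from −0.103 to 0.143 for Ctcf, −0.591 to 0.0596 for LacZ, −0.176 to 0.129 for Fabp5, −0.155 to 0.09 for Adprhl2 and −0.0517 to 0.135 for Gfm1.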
